A study of Capra hircus with 6 samples.

Results

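The HSP70 family was examined in a goat testis cell line in which 1 of its members, HSPA8, had been lowered by a short hairpin RNA. The family was taken as the 10 genes HSPA8, HSP70.1, HSPA6, HSPA5, HSPA13, HSPA9, HSPA4, HSPA4L, HSPA14 and HSPA12A, found by their symbols among the 16599 genes with values in the deposited table. All 10 carried values in the 6 libraries, and all 10 passed the filter on low counts that left 12665 genes for testing. The members were named by symbol, and no threshold on a measured value chose them. Earlier results of these data were known when the members were chosen.

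HSP70 proteins are chaperones that bind short hydrophobic stretches of unfolded or newly made proteins and release them in a cycle driven by ATP. J-domain proteins deliver the client and trigger ATP hydrolysis, and nucleotide exchange factors reset the chaperone. Different members serve the cytosol, the endoplasmic reticulum (ER) and mitochondria, and some are made at all times while others are induced when proteins misfold. HSPA8 also strips clathrin from coated vesicles and delivers proteins to lysosomes in chaperone-mediated autophagy.

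The cells were mGSCs-I-SB, a goat (Capra hircus) line given as spermatogonial stem cells in the labels and grown in DMEM/F12 medium with 10% fetal bovine serum, antibiotics and 5% CO2. The 3 lines compared had 2 libraries each: shCON (control hairpin, genotype WT), shUCHL1 (knockdown of UCHL1, a ubiquitin hydrolase) and shHSPA8 (knockdown of HSPA8). The series title sets UCHL1 against HSPA8, so the question for the family was which members differed when either gene was lowered. The labels do not state how many hairpins were used per gene or whether a line was 1 clone. Nor do they say that the libraries of 1 line were grown apart, so each p-value weighs a difference against a spread that may be technical.

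Library totals lay between 15710532 and 16417274 counts, and the scaling factors of the trimmed mean of M values (TMM) between 0.966 and 1.04. UCHL1 fell in its own line, from 428 ± 32.3 to 96.0 ± 2.36 CPM (counts brought to 1 library size by those factors; SD, n = 2). In shHSPA8 it stood at 360 ± 36.5 CPM (edgeR quasi-likelihood F test, Benjamini-Hochberg adjusted p = 0.151). Of the germ cell markers, DDX4 lay between 0.43 and 1.96 CPM and GFRA1 between 0.18 and 1.08 CPM over all libraries. Of 25 listed germ cell markers, 16 carried values, 6 of them under 1 CPM in every library. DAZL, ZBTB16, NANOS2, NANOS3, LIN28A, SALL4, UTF1, STRA8 and SOHLH1 were matched to no gene with values. Others were plain to see, with THY1 between 61.5 and 168.7 CPM, ITGA6 between 59.2 and 120.8 CPM and ETV5 between 9.99 and 13.3 CPM, though other cell types express these too. All 12 fibroblast and myoid markers were detected, with a summed level of 23900 to 25490 CPM in shCON, 28820 to 29510 CPM in shUCHL1 and 35010 to 35230 CPM in shHSPA8. COL1A1, COL1A2 and COL3A1 carried most of that sum, and its members did not all move in the same direction. In shUCHL1, 3 of the 12 rose (COL3A1, DCN and LUM) and 4 fell (ACTA2, TAGLN, CNN1 and DES), while in shHSPA8 5 rose (COL1A2, COL3A1, PDGFRB, DCN and LUM) and none fell (1 was lower at an unadjusted p under 0.05). Markers of Sertoli cells summed to 182.8 and 191.2 CPM in shCON, 135 and 134.8 CPM in shUCHL1, and 92.55 and 91.09 CPM in shHSPA8, and 3 of the 5 tested fell in each knockdown line. Of the 11 germ cell markers tested, 4 rose and 2 fell in shUCHL1, the targeted UCHL1 among the latter. In shHSPA8, 1 rose and none fell (1 was lower at an unadjusted p under 0.05). Over all genes, 8.54% were called higher and 7.15% lower in shUCHL1, and 8.66% and 6.02% in shHSPA8. The markers thus leave the cell type unsettled, and the cells are called by the name of the line. In bulk libraries, fewer cells of a type and less RNA per cell cannot be told apart, and the part of these marker levels in the family's differences was not tested.

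The family did not move as a block. In shUCHL1, 6 of the 10 members rose and none fell, namely HSPA8, HSP70.1, HSPA6, HSPA5, HSPA4L and HSPA12A. In shHSPA8, HSPA8 itself fell, the inducible members HSP70.1 and HSPA6 rose, and the other 7 did not pass the test. Between the knockdown lines, HSPA8, HSPA5 and HSPA12A were higher in shUCHL1 and none was lower. At an unadjusted p under 0.05, 1 member was lower in shUCHL1 than in shCON and 1 lower than in shHSPA8, and DESeq2 called none lower in either comparison. These calls, and every adjusted p given as edgeR's, come from the quasi-likelihood F test with Benjamini-Hochberg adjustment over all 12665 genes, at a threshold of 0.05.

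The whole transcriptome gives the scale for those counts. In shUCHL1, 8.54% of all genes tested were called higher and 7.15% lower than in shCON. In shHSPA8 the shares were 8.66% and 6.02%, and in shUCHL1 against shHSPA8 they were 6.20% and 8.35%. How the calls split by direction depends on the scaling. In shUCHL1, 54.5% of the genes called were higher (48.9% with DESeq2, so more were lower), against 68.1% with library size alone and 66.1% on log2(FPKM + 1). Between the knockdown lines 42.6% were higher in shUCHL1, against 64.4% and 59.0%, which turns the majority. In shHSPA8 the 59.0% moved by less than 10 percentage points under the same settings. It moved by more than 10 points without the first shHSPA8 library, and in shUCHL1 the majority turned without the first shCON library. The median log2 fold change of the members was 0.59, 0.30 and 0.21 in these comparisons, in that order, against 0.0094, -0.0032 and 0.018 over all genes tested. The libraries of shUCHL1 and shCON did not overlap for any of the 10 members, 8 higher and 2 lower, where 56.5% of all genes did not overlap. Libraries of shHSPA8 and shCON did not overlap for 8 members, 5 higher and 3 lower, against 51.0% of all genes. For shUCHL1 and shHSPA8 it was 7 members, 5 higher and 2 lower, against 65.7%. HSPA8, the target of the shHSPA8 hairpin, is among the members counted in both comparisons that involve shHSPA8. Without the first shCON library the members called in shHSPA8 numbered 5 in place of 3, and without either shCON library those called between the knockdown lines numbered 5 in place of 3.

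**Figure D1:**
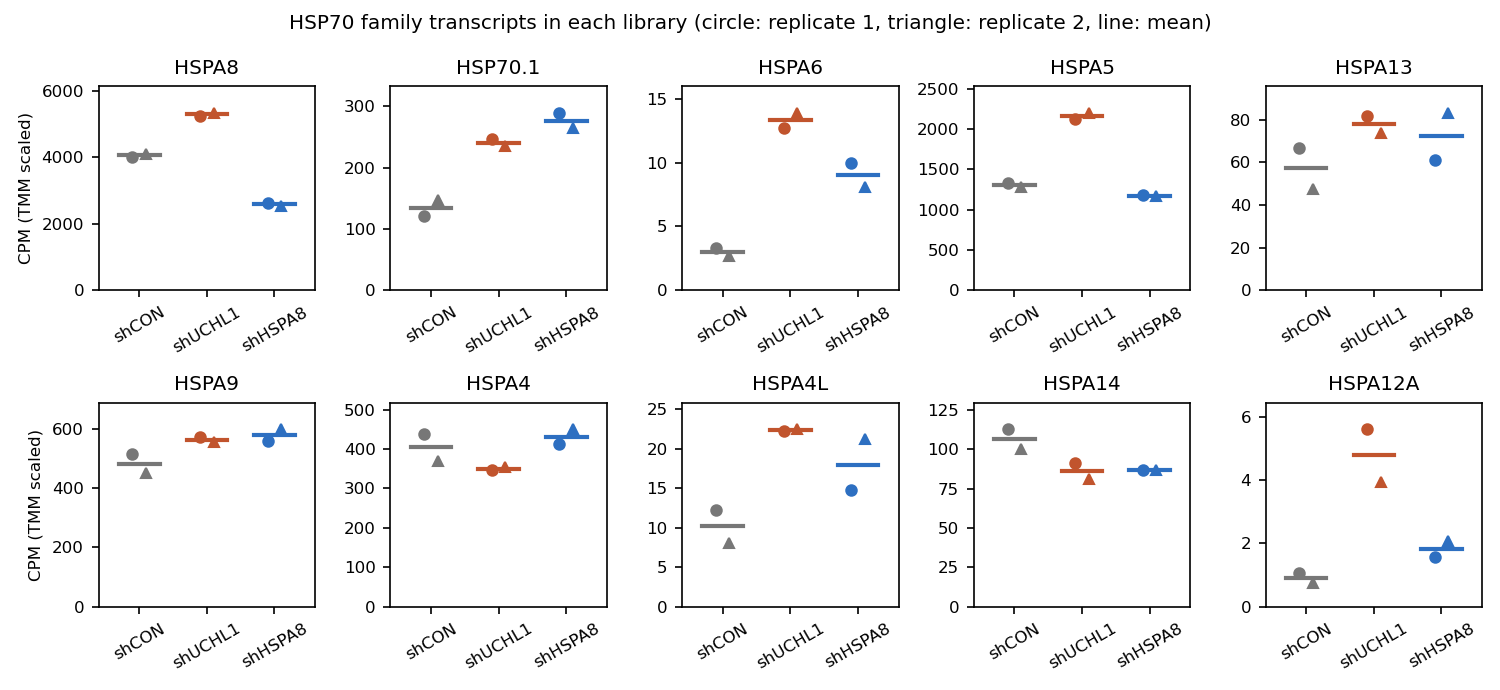
Level of each HSP70 family member in the 6 libraries, in TMM-scaled CPM on a linear axis starting at 0, with the first library of a line as a circle, the second as a triangle and the line mean as a bar. HSPA8 separates the 3 lines, HSPA5 is high in shUCHL1 alone, and HSP70.1 and HSPA6 lie above both shCON libraries in each of the 4 knockdown libraries.

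HSPA8 (gene ID 102182240), the constitutive cytosolic member and the target of the shHSPA8 hairpin, was read first because it checks the labels. It stood at 4016 and 4112 CPM in the 2 shCON libraries, at 5252 and 5345 CPM in shUCHL1, and at 2631 and 2528 CPM in shHSPA8. The libraries of the 3 lines fell into separate ranges, highest in shUCHL1 and lowest in shHSPA8. In the line labelled as its knockdown HSPA8 fell by 0.66 on the log2 scale (SE 0.07, 95% interval -0.82 to -0.49, edgeR adjusted p = 0.00126). The fitted level was 63.5% of shCON, so most of the transcript was still present.

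HSPA8 remained an abundant transcript in every line. Ranked by FPKM, the deposited values scaled to transcript length and library size, it was the 21st and 26th most abundant gene in the shCON libraries, the 4th in both shUCHL1 libraries, and the 83rd and 75th in shHSPA8. It took 0.393% and 0.409% of all counts in shCON, 0.547% and 0.557% in shUCHL1, and 0.257% and 0.244% in shHSPA8. Lowering UCHL1 went with 1.30-fold more HSPA8, a log2 fold change of 0.38 (SE 0.07, edgeR adjusted p = 0.0129). That call was lost when either shUCHL1 library was left out (edgeR adjusted p = 0.150 without the first and 0.175 without the second), with the log2 fold change at 0.38 and 0.35.

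Both inducible cytosolic members were higher in the 2 knockdown lines. HSP70.1 (gene ID 100860849) is the goat annotation's name for a heat-inducible HSP70 of the HSPA1A type. It stood at 120.6 and 147.0 CPM in shCON, 246.0 and 235.1 CPM in shUCHL1, and 289.5 and 263.7 CPM in shHSPA8. Every knockdown library lay above both shCON libraries, and the ranges of the knockdown lines did not meet. HSP70.1 rose 1.80-fold in shUCHL1 (log2 change 0.85, SE 0.11, edgeR adjusted p = 0.00379) and 2.07-fold in shHSPA8 (1.05, SE 0.11, edgeR adjusted p = 0.00129). Both comparisons use the same 2 shCON libraries, which differed from each other by 0.28 on the log2 scale for this gene. Without 1 library at a time, the largest adjusted p in edgeR's test was 0.0491 in shUCHL1 and 0.00922 in shHSPA8.

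HSPA6 (gene ID 102185412) encodes another stress-inducible HSP70, usually silent or nearly so in unstressed human cells. It was scarce here too, at 3.29 and 2.69 CPM in shCON, 12.7 and 13.9 CPM in shUCHL1, and 9.92 and 8.08 CPM in shHSPA8. The shCON values rest on 52 and 44 counts, those of shUCHL1 on 208 and 232, and the 3 lines did not overlap. HSPA6 rose 4.44-fold in shUCHL1 (log2 change 2.15, SE 0.18, edgeR adjusted p = 0.000611) and 3.01-fold in shHSPA8 (1.59, SE 0.19, edgeR adjusted p = 0.00186). All alternatives tried kept these calls and those of HSP70.1 in both knockdown lines.

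How reads of near-identical HSP70 copies were shared out bears on these values. HSP70.1 carried fractional counts in all 6 libraries, while the other 9 members had whole counts in every library. In RefSeq's gene table for the ARS1.2 assembly its gene overlaps LOC102177850, whose synonym is HSPA1L, a related HSP70. LOC102177850 held 13.8 and 11.9 CPM in shCON, 13.5 and 12.9 in shUCHL1, and 12.3 and 13.5 in shHSPA8, so its lines overlapped and it was not called. The level of HSP70.1 is uncertain to the extent that reads were split between such copies, and the counting method is not given in the sources used here.

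HSPA5 (gene ID 102185663), the ER member also known as BiP or GRP78, stood highest in the UCHL1 knockdown. It stood at 1332 and 1274 CPM in shCON, 2129 and 2203 CPM in shUCHL1, and 1184 and 1163 CPM in shHSPA8. Both shUCHL1 libraries lay far above the other 4, and both shHSPA8 libraries lay just below shCON. HSPA5 rose 1.66-fold in shUCHL1 (log2 change 0.73, SE 0.07, edgeR adjusted p = 0.00113). In shHSPA8 its log2 fold change of -0.15 (SE 0.07, 95% interval -0.32 to 0.02) did not pass the test (edgeR adjusted p = 0.222). The direct comparison gave 1.85-fold more HSPA5 in shUCHL1 than in shHSPA8 (0.88, SE 0.07, edgeR adjusted p = 0.000876), a call that held in every alternative run.

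HSPA13 (gene ID 102179318), a microsome-associated member that lacks the usual substrate-binding domain, did not pass the test in any comparison. Its libraries held 66.9 and 47.4 CPM in shCON, 81.7 and 73.9 CPM in shUCHL1, and 61.3 and 83.3 CPM in shHSPA8. The 2 libraries of shCON and those of shHSPA8 lay wide apart, in opposite order. The log2 fold change was 0.45 in shUCHL1 (edgeR adjusted p = 0.188) and 0.34 in shHSPA8 (edgeR adjusted p = 0.309). Without the first shCON library the former reached 0.69 (edgeR adjusted p = 0.0406).

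HSPA9 (gene ID 102188849), the mitochondrial member called mortalin, draws proteins through the inner membrane and takes part in iron-sulfur cluster assembly. It stood at 515.8 and 450.6 CPM in shCON, 572.7 and 555.6 CPM in shUCHL1, and 559.1 and 599.6 CPM in shHSPA8. The 4 knockdown libraries lay above shCON, but the differences were small, at a log2 fold change of 0.22 in shUCHL1 (edgeR adjusted p = 0.160) and 0.26 in shHSPA8 (edgeR adjusted p = 0.110). Without the first shCON library they passed, at 0.30 (edgeR adjusted p = 0.0445) and 0.34 (edgeR adjusted p = 0.0350). The knockdown lines overlapped with each other for HSPA9.

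HSPA4 (gene ID 102172434) and HSPA4L (gene ID 102176065) are HSP110-type members, which act mainly as nucleotide exchange factors for other HSP70 proteins. HSPA4 held 439.5 and 368.7 CPM in shCON, 347.6 and 353.8 in shUCHL1, and 412.1 and 450.7 in shHSPA8. Its log2 fold change was -0.20 in shUCHL1 (edgeR adjusted p = 0.248) and 0.094 in shHSPA8 (edgeR adjusted p = 0.607). Without the second shCON library the former reached -0.33 (edgeR adjusted p = 0.0485), and the sign of the latter turned to -0.028.

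HSPA4L was much scarcer than HSPA4 and went the other way in shUCHL1. It stood at 12.3 and 8.02 CPM in shCON, 22.2 and 22.5 CPM in shUCHL1, and 14.8 and 21.2 CPM in shHSPA8, on 131 to 375 counts. All 4 knockdown libraries lay above shCON, tightly together in shUCHL1 and apart in shHSPA8. HSPA4L rose 2.20-fold in shUCHL1 (log2 change 1.14, SE 0.24, edgeR adjusted p = 0.0189), a call lost without either shUCHL1 library (edgeR adjusted p = 0.0987 without the first or the second), with the log2 fold change at 1.14 and 1.12. In shHSPA8 the log2 fold change was 0.83 (SE 0.24, edgeR adjusted p = 0.0617), and 4 of 17 alternatives called it. Among these were the fits without the first shCON library (edgeR adjusted p = 0.0195) and without the first shHSPA8 library (edgeR adjusted p = 0.0445).

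HSPA14 (gene ID 102175867), which joins the ribosome with the J-domain protein DNAJC2, was lower in the knockdown libraries without passing the test. It held 113.0 and 100.3 CPM in shCON, 91.2 and 81.2 CPM in shUCHL1, and 87.05 and 87.02 CPM in shHSPA8. The log2 fold change was -0.31 in shUCHL1 (SE 0.10, edgeR adjusted p = 0.0950) and -0.29 in shHSPA8 (SE 0.10, edgeR adjusted p = 0.112). Without the second shCON library the latter reached -0.38 (edgeR adjusted p = 0.0476).

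HSPA12A (gene ID 102186270), a distant relative with an atypical ATPase domain, was the scarcest member and, on counts, had the largest fold change of the 10 in shUCHL1. It held 17 and 12 counts in shCON (1.08 and 0.735 CPM), 92 and 66 in shUCHL1 (5.62 and 3.96 CPM), and 25 and 32 in shHSPA8 (1.58 and 2.07 CPM). The 3 lines did not overlap. HSPA12A rose 5.26-fold in shUCHL1 (log2 change 2.40, SE 0.31, edgeR adjusted p = 0.00314). On log2(FPKM + 1), which understates the change of scarce genes, the difference was 0.71, below the 1.56 of HSPA6. In shHSPA8 the log2 fold change was 1.01 (SE 0.35, edgeR adjusted p = 0.109).

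**Figure D2:**
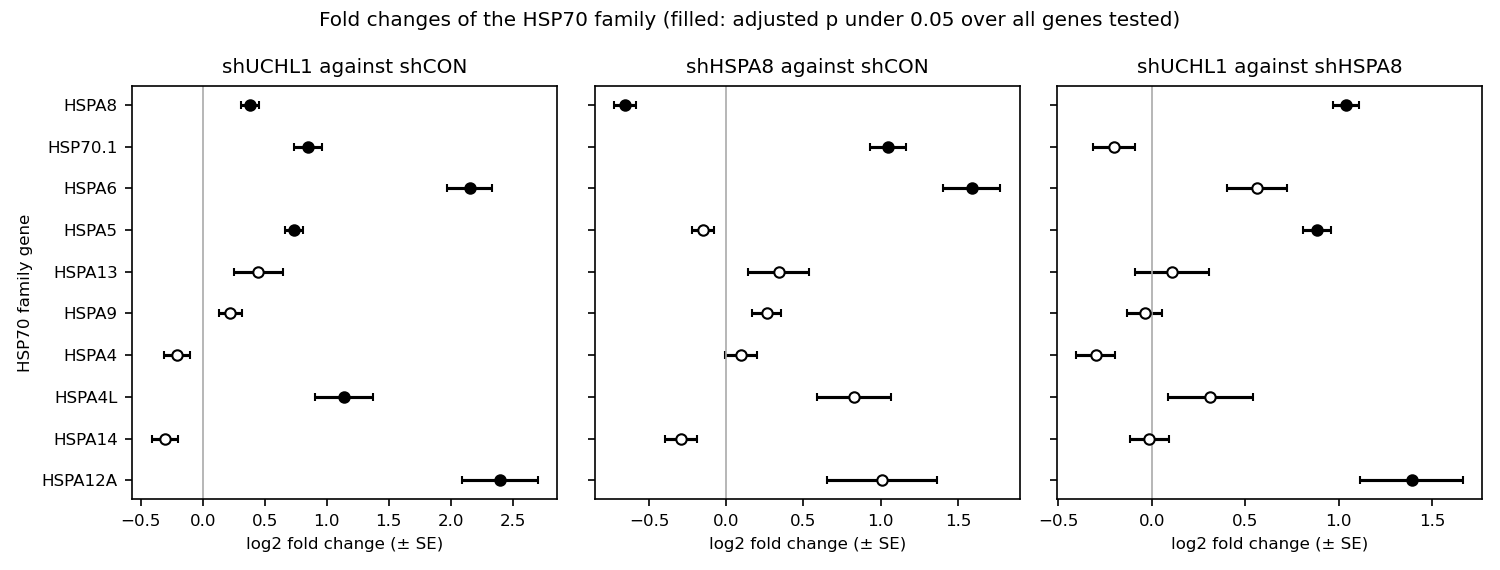
Log2 fold change of each member with its standard error in the 3 comparisons, filled where edgeR's adjusted p was under 0.05. HSPA8 is above 0 in shUCHL1 and below 0 in shHSPA8, HSPA5 is filled only where shUCHL1 is the first line, and HSPA9, HSPA4, HSPA13 and HSPA14 are open throughout.

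Set directly against each other, the knockdown lines differed in HSPA8, HSPA5 and HSPA12A. HSPA8 was 2.05-fold higher in shUCHL1 (log2 difference 1.04, SE 0.07, edgeR adjusted p = 0.000415). HSPA12A was 2.62-fold higher (1.39, SE 0.27, edgeR adjusted p = 0.0182), a call lost without any 1 of the 4 libraries compared. Its adjusted p in edgeR's test was then 0.151 and 0.0536 without the first and second shUCHL1 library, and 0.113 and 0.0532 without the first and second of shHSPA8.

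The inducible members were not shown to differ between the knockdown lines. For HSP70.1 the log2 difference of shUCHL1 from shHSPA8 was -0.20 (95% interval -0.47 to 0.06, edgeR adjusted p = 0.275). For HSPA6 it was 0.56 (95% interval 0.19 to 0.94, edgeR adjusted p = 0.0568), and 7 of 17 alternatives called it, among them the fits without the first or the second shCON library (edgeR adjusted p = 0.0319 and 0.0303). HSPA4 had a log2 difference of -0.30 (edgeR adjusted p = 0.1001) that passed without either shCON library (edgeR adjusted p = 0.0235 and 0.0244). HSPA4L, HSPA9, HSPA13 and HSPA14 had log2 differences of 0.31, -0.038, 0.11 and -0.014, none of which passed.

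Levels of different members can be compared only per transcript length, for which the deposited FPKM served. In shCON, HSPA8 held 1967 ± 37.8 FPKM, HSPA5 603.2 ± 22.0, HSPA9 120.5 ± 10.7, HSPA4 88.08 ± 10.2 and HSP70.1 80.19 ± 11.2 (SD, n = 2). The order went on with HSPA14 at 63.5 FPKM, HSPA13 at 14.57, HSPA4L at 1.365, HSPA6 at 1.115 and HSPA12A at 0.16. Of these neighbours, HSPA4 and HSP70.1 overlapped, and so did HSPA4L and HSPA6. HSP70.1 was the fifth member in shCON and the third in both knockdown lines, at 151.5 ± 4.58 FPKM in shUCHL1, where it overlapped with HSPA9, and at 164.5 ± 12.2 FPKM in shHSPA8, where it did not.

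The makeup of the family shifted most in shHSPA8. HSPA8 made up 66.0% and 67.9% of the summed FPKM of the 10 members in the shCON libraries, 63.8% and 63.9% in shUCHL1, and 55.6% and 54.6% in shHSPA8. The share of HSP70.1 was 2.73 ± 0.385% in shCON, 3.59 ± 0.152% in shUCHL1 and 7.32 ± 0.371% in shHSPA8. HSPA5 took 20.5 ± 0.725%, 25.2 ± 0.307% and 23.7 ± 0.138%, in the same order. HSPA8 is the hairpin's target and the largest part of the sum, so its fall in shHSPA8 by itself raises the other shares. The share of HSPA5 was higher in shHSPA8 than in shCON although its mean FPKM was lower (532.0 against 603.2). The ratio of HSPA8 to HSP70.1 in FPKM was 26.9 and 22.6 in shCON, 17.3 and 18.4 in shUCHL1, and 7.33 and 7.73 in shHSPA8. These shares and ratios were not tested and are descriptions; an exact two-sided permutation test of 2 libraries against 2 cannot give a p below 0.33.

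On the FPKM scale the gain of the inducible members was small beside the change of HSPA8. Mean HSPA8 fell by 730.3 FPKM from shCON to shHSPA8, while HSP70.1 was 84.3 FPKM higher, which is 11.55% of that fall, and HSPA6 was 2.2 FPKM higher. HSPA8, HSP70.1 and HSPA6 together came to 2049 ± 48.8 FPKM in shCON, 2854 ± 32.7 in shUCHL1 and 1405 ± 57.9 in shHSPA8, with no overlap between lines. In shUCHL1, mean HSPA8 was 730.2 FPKM higher than in shCON, HSPA5 459.9 higher and HSP70.1 71.3 higher. The TMM factors were not applied to FPKM. On log2(FPKM + 1) the median log2 fold change of all genes in shUCHL1 was 0.072, against 0.0094 in the main fit. In TMM-scaled CPM, mean HSPA8 was 4064 in shCON, 5298 in shUCHL1 and 2579 in shHSPA8, so its rise was smaller than its fall. The sum over all 10 members was 2940 ± 3.49 FPKM in shCON, 4225 ± 51.4 in shUCHL1 and 2245 ± 52.9 in shHSPA8. The order of lines was that of HSPA8 alone, which is the largest part of the sum, so it is no separate result.

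**Figure D3:**
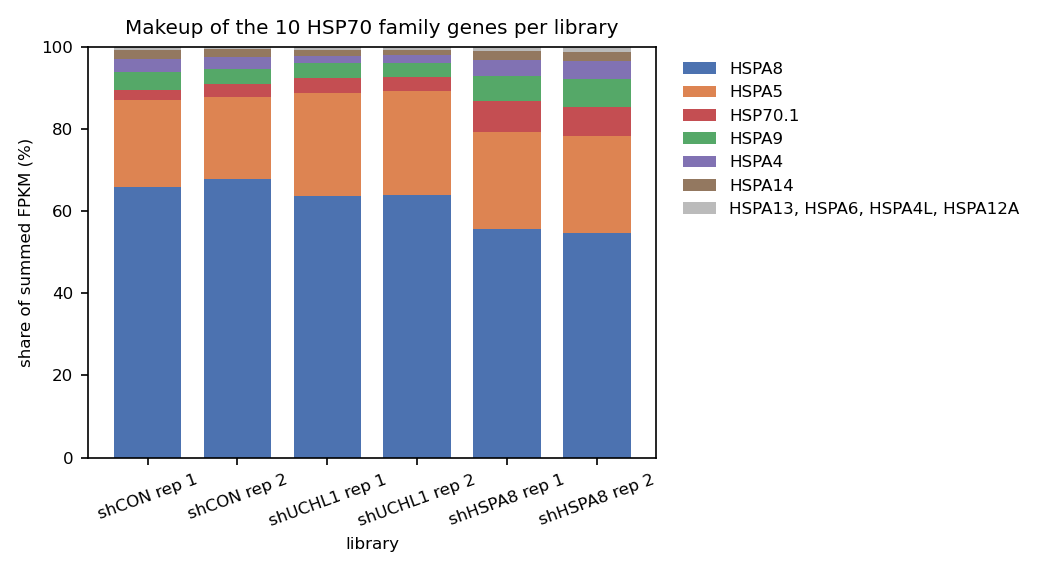
Share of each member in the summed FPKM of the 10 HSP70 family genes, in percent, as 1 stacked bar per library. HSPA8 fills 66.0% and 67.9% of the shCON bars and 55.6% and 54.6% of the shHSPA8 bars, and the HSP70.1 segment is widest in shHSPA8.

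The libraries of a line differed most for HSPA4L and HSPA13 in shCON and shHSPA8. The log2 ratio of the first to the second library was 0.56 in shCON and -0.49 in shHSPA8 for HSPA4L, the longest transcript at 7.32 kb, where length was taken from counts and FPKM. For HSPA13, at 3.86 kb, it was 0.49 and -0.44. HSPA8, at 2.04 kb, had ratios of -0.034 and 0.058, and HSPA5, at 2.13 kb, of 0.064 and 0.026. Length did not order all members: in shCON the libraries differed by 0.284 for the short HSP70.1, above the 0.253 of HSPA4 and the 0.195 of HSPA9. In shUCHL1 they differed by 0.418 for HSPA12A and 0.164 for HSPA14, but by 0.015 for HSPA4L. Over 12655 genes with a length, the Spearman correlation of this ratio with length was 0.487 in shCON, 0.268 in shUCHL1 and -0.485 in shHSPA8, given as a description across genes that share their libraries. The part of length in the members' differences was not tested beyond a fit with a length correction, chosen after seeing the data. With it, members called numbered 7 in shUCHL1, 5 in shHSPA8 and 5 between the lines, in place of 6, 3 and 3. The additions included HSPA4 in shUCHL1 (log2 fold change -0.25, edgeR adjusted p = 0.0276) and HSPA9 in shHSPA8 (0.28, edgeR adjusted p = 0.0127).

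**Figure D4:**
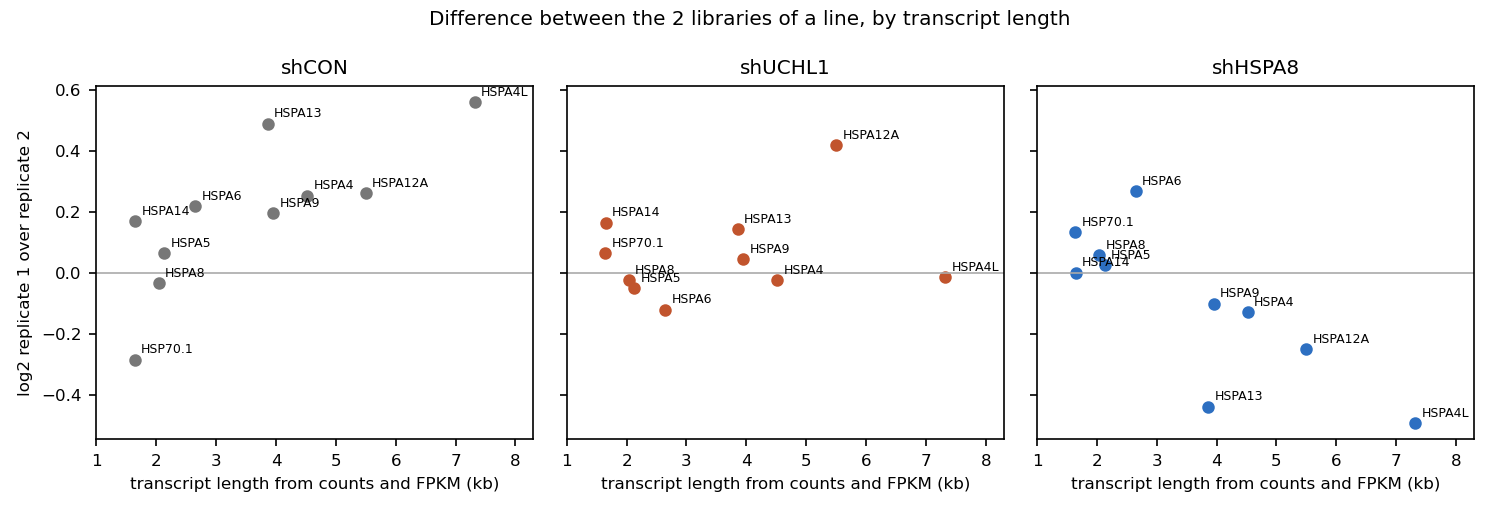
Log2 ratio of the first to the second library of a line for each member, against transcript length in kb computed from the deposited counts and FPKM. HSPA4L and HSPA13 lie above 0 in shCON and below 0 in shHSPA8, while HSPA8 and HSPA5 lie near 0 in all 3 lines.

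Of the family's further relatives, 5 carried values. HSPH1, a cytosolic HSP110 that recharges HSP70 with ATP, held 249.6 ± 29.9 CPM in shCON, 311.1 ± 8.04 in shUCHL1 and 381.2 ± 20.2 in shHSPA8. It rose in shHSPA8 (log2 fold change 0.61, SE 0.10, edgeR adjusted p = 0.00862), a call lost without the second shHSPA8 library (edgeR adjusted p = 0.0557), with the log2 fold change at 0.56. HYOU1, its counterpart in the ER, rose in shUCHL1 (0.48, SE 0.07, edgeR adjusted p = 0.00671), and lost that call without either shUCHL1 library (edgeR adjusted p at most 0.114). HSPA2, the HSP70 that is abundant in spermatocytes, had a log2 fold change of 0.43 in shHSPA8 (SE 0.10, edgeR adjusted p = 0.0279), a call lost when any library but the second of shCON was left out (edgeR adjusted p at most 0.134). HSPA12B and LOC102177850 were not called in any comparison.

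Partners that work with HSPA8 in the cytosol were read against the 8.54% and 8.66% of all genes called higher in shUCHL1 and shHSPA8. The shares called lower were 7.15% and 6.02%. Of 17 J-domain proteins, 1 rose in shUCHL1 (DNAJB5) and 2 rose in shHSPA8 (DNAJA1 and DNAJB1), with none called lower and 2 lower in each at an unadjusted p under 0.05. DNAJB5 (log2 fold change 0.69) lost its call without either shUCHL1 library (edgeR adjusted p at most 0.136). The list's median log2 fold change was 0.0060 and 0.041. In shUCHL1 against shHSPA8, 4 of the 17 were lower and none higher (median 0.027), where 8.35% of all genes were called lower and 6.20% higher. These calls were lost without either shUCHL1 library. DNAJA1, a main J-domain partner of cytosolic HSP70, stood at 499.7 and 461.5 CPM in shCON, 525.0 and 524.2 CPM in shUCHL1, and 758.3 and 740.5 CPM in shHSPA8. It rose 1.56-fold in shHSPA8 (log2 fold change 0.64, SE 0.08, edgeR adjusted p = 0.00211) and kept that call under every alternative. Of 11 nucleotide exchange factors and adaptors, 1 rose in shUCHL1 (BAG3, edgeR adjusted p = 0.0309, and at most 0.284 without 1 library, lost for all but the second of shCON), while in shHSPA8 1 rose (HSPH1) and 1 fell (BAG2, log2 fold change -0.57, edgeR adjusted p = 0.0113, and at most 0.0787 without either shHSPA8 library). None of the 5 tested genes of clathrin uncoating, the vesicle task of HSPA8, was called in any comparison by edgeR or DESeq2, and none had an unadjusted p under 0.05. With so few genes, 0 of 5 cannot be set apart from the share called over all genes.

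ER partners were set beside HSPA5. Over all genes, 8.54% were called higher and 7.15% lower in shUCHL1, and 8.66% and 6.02% in shHSPA8. Between the knockdown lines the shares were 6.20% and 8.35%. Of the 17 partners, 4 rose and 1 fell in shUCHL1 (median log2 fold change 0.22), and 3 rose and none fell in shHSPA8 (median 0.17). In shUCHL1 against shHSPA8, 4 partners were higher and 1 lower (median 0.049). Those called higher numbered 2 without either shUCHL1 library in shUCHL1, and 6 without the first of shCON. Between the knockdown lines they numbered 1 without either shUCHL1 library, and 2 without either shHSPA8 library. In shHSPA8 the number was 0 when any 1 of the 4 knockdown libraries was left out, 2 without the first of shCON and 4 without the second. HERPUD1, an ER membrane protein of protein disposal, stood at 59.5 and 64.0 CPM in shCON, 145.8 and 158.9 CPM in shUCHL1, and 84.1 and 78.6 CPM in shHSPA8. It rose 2.47-fold in shUCHL1 (log2 change 1.30, SE 0.10, edgeR adjusted p = 0.000377). DNAJB9, a J-domain partner of HSPA5, rose 1.91-fold in shUCHL1 (0.93, SE 0.11, edgeR adjusted p = 0.00270). The other calls were HYOU1 and CRELD2 up and MANF down in shUCHL1, and HERPUD1, DNAJB9 and PDIA4 up in shHSPA8. MANF (log2 fold change -0.36) lost its call without the second shCON library or either of shUCHL1 (edgeR adjusted p at most 0.295), and 9 of 17 alternatives called it. HERPUD1 and DNAJB9 kept their calls in shUCHL1 under every alternative, while HSP90B1 (0.28, edgeR adjusted p = 0.0553) and CALR (-0.038, edgeR adjusted p = 0.804), other abundant ER chaperones, did not pass.

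Mitochondrial partners of HSPA9 numbered 15, of which none rose (1 was higher at an unadjusted p under 0.05, and 0 by DESeq2) and 1 fell in shUCHL1 (NFS1), while 2 rose in shHSPA8 (median log2 fold change -0.059 and 0.15). Over all genes, 8.54% were called higher and 7.15% lower in shUCHL1, and 8.66% and 6.02% in shHSPA8. In shUCHL1 against shHSPA8, 3 of the 15 were lower and none higher (median -0.15), where 8.35% of all genes were called lower and 6.20% higher. Fewer of the 15 were called there without any 1 of the knockdown libraries. With so few genes, these counts cannot be set apart from those shares. NFS1 (-0.44) lost its call without either shUCHL1 library (edgeR adjusted p at most 0.184), with the replicate block and on log2(FPKM + 1). DNAJC15, a J-domain protein of the inner membrane import motor, went from 28.5 ± 0.684 CPM in shCON to 57.3 ± 2.25 CPM in shHSPA8 (1.01, SE 0.10, edgeR adjusted p = 0.000719), a call kept under every alternative. In shUCHL1 it stood at 31.2 ± 0.655 CPM. The other, DNLZ, a chaperone of HSPA9 itself, rose by 0.69 (edgeR adjusted p = 0.0411) and lost that call without 5 of the 6 libraries, all but the second of shCON (edgeR adjusted p at most 0.189).

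HSF1 is the transcription factor that induces heat shock genes. Of 17 genes in a list of HSF1, HSF2 and heat shock targets, 2 rose in shUCHL1 and 5 rose in shHSPA8, and none fell in either. The median log2 fold change was 0.12 and 0.21. Over all genes, 8.54% and 8.66% were called higher and 7.15% and 6.02% lower. With so few genes, 0 of 17 lower cannot be set apart from the latter shares. The 5 in shHSPA8 were HSPH1, DNAJB1 (0.60), HSP90AA1 (0.39), HSPB1 (0.61) and AHSA1 (0.37), the last 2 named after their values were seen. The lists share genes, so their counts are not separate results. HSPH1 was also counted among the further relatives and the exchange factors, and DNAJB1 among the J-domain proteins. HYOU1 and BAG3 stand in more than 1 list as well. DNAJB1 lost its call without either shUCHL1 library or the first of shHSPA8 (edgeR adjusted p at most 0.0934), and HSP90AA1 without any 1 of the 4 knockdown libraries (at most 0.0856). When any 1 of the 4 knockdown libraries was left out, 1 of the 17 was called higher in shHSPA8, and without the second shCON library 7 were. In shUCHL1 it was 0 without either shUCHL1 library and 3 without the first of shCON. HSF1 itself had log2 fold changes of -0.052 and -0.085 (edgeR adjusted p = 0.869 and 0.777). In shUCHL1 against shHSPA8, 1 of the 17 was higher and 3 were lower (median -0.081), where 6.20% of all genes were called higher and 8.35% lower. Fewer of the 17 were called there without any 1 of the knockdown libraries.

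**Figure D5:**
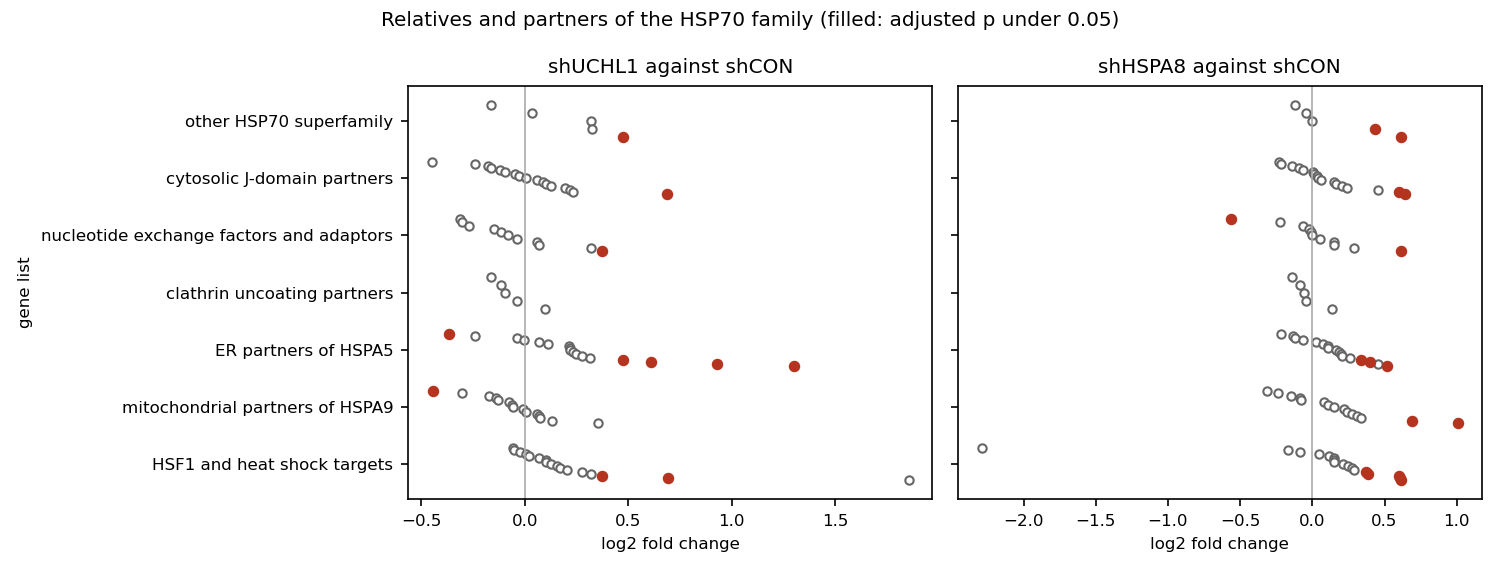
Log2 fold change against shCON of each tested gene in 7 lists of HSP70 relatives and partners, 1 row per list, filled where edgeR's adjusted p was under 0.05. The clathrin row is open in both panels, and of the filled points the one furthest to the right is HERPUD1 of the ER row in shUCHL1, at 1.30, and DNAJC15 of the mitochondrial row in shHSPA8, at 1.01.

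Among 9718 genes of at least 5 CPM, those whose levels followed HSPA8 most closely over the 6 libraries were DGKD, GKAP1, TRAFD1, PMEPA1 and KANSL2 (Pearson r of 0.9976 to 0.99 on log2(CPM + 1)). They moved far less than HSPA8, with log2 fold changes of 0.059 to 0.18 in shUCHL1 and -0.27 to -0.14 in shHSPA8, and none was called in either. Nearest to HSPA5 were GOLGA5, CARMIL2, RAB3B, PSMD5 and YPEL5 (r of 0.9981 to 0.994), all of them called higher in shUCHL1, at log2 fold changes of 0.37 to 0.63. Both sets were picked by r over these same libraries. Their directions, including the rise in shUCHL1 beside HSPA5, follow from that pick and are no separate result. The 6 points of each r come from 3 lines and share their libraries, so r is a description of these libraries.

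In the authors' deposited table, the log2 ratio of HSPA8 was -0.67 for shHSPA8 to shCON and 0.36 for shUCHL1 to shCON. The authors' deposited table gives p-values of 0.0202 for HSPA13 and 0.0287 for HSPA14 in shUCHL1, genes that did not pass here, and whether those are adjusted is not stated. The authors' deposited table also gives 0.00492 for HSPA4L in shHSPA8 and, between the knockdown lines, 0.00140 for HSPA4, 0.0243 for HSPA6 and 0.0376 for HSP70.1, none of which passed here. The deposited pathway annotation, from KEGG, lists the same 12 descriptions for HSPA8, HSPA6 and HSP70.1, so a pathway count from it would count these 3 together. HSPA12A, HSPA13 and HSPA14 have none.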

How the data were processed

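RNA of 6 libraries was sequenced, 2 from each of 3 goat mGSCs-I-SB lines, with groups and replicate numbers taken from the titles. Trimmomatic 0.36 is the 1 tool that the submitters' processing notes name. Which aligner, counter, build and strand mode were used is not given in the sources used here. The deposited table holds, per the file headers, the authors' FPKM and read count for each gene and library. Since 1014 to 1117 genes per library have fractional values, the authors' deposited read counts were treated like estimated counts and rounded for testing. The authors also deposited log2 ratios and p-values, per the file headers, by a test that is not stated. Of 33229 rows, 16599 carry values and 16630 were blank and not used. All 16599 IDs matched the ARS1.2 gene table, which served for names and neighbours only.

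Lines were compared with the quasi-likelihood F test of edgeR 4.0.16 (R 4.3.3), after filterByExpr and TMM factors. The model held line alone and took 1 spread from the 6 libraries. P-values were adjusted by Benjamini-Hochberg over 12665 genes, with a threshold of 0.05. CPM uses TMM factors. The SE is the log2 fold change divided by the square root of F. Intervals come from that SE at 7.2 degrees of freedom. Shares of FPKM have no test. Transcript length is the ratio of counts to FPKM.

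All 10 members are named. From each partner list, up to 3 called genes per comparison and direction with the lowest p were eligible, plus the 5 genes most like HSPA8 and HSPA5, and UCHL1. HSP90B1, CALR, HSF1, HSPB1, AHSA1, LOC102177850, HSPA12B and the cell markers fall outside this rule. Members and lists were chosen with earlier results of these data known.

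The test was tried on simulated data for shUCHL1 against shCON from 12665 genes. It found 17 of the 67 genes with a simulated 1.5-fold change, 55 of the 67 with 2-fold and 62 of the 66 with 4-fold, and called 15 of 12026 unchanged genes. Alternatives were DESeq2 1.42.0, limma-voom and limma (3.58.1) on log2(FPKM + 1) or log2(FPKM + 0.1), other scalings and filters, the 4 libraries of a comparison alone, a replicate block, each library left out, and a length correction.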

Additional observations from a re-analysis of the deposited data

How the results depend on the processing

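Of the 456 values for the members other than HSPA8 and their alternatives, 417 kept direction and side of the threshold, 6 lost a call, 22 gained one and 11 turned sign. Under every alternative that gave a value, shUCHL1 kept 4 of its 6 calls, shHSPA8 kept all 3, and the direct comparison kept 2 of 3 (HSPA12A gave none with at least 5 CPM). Without 1 library at a time, the log2 fold change of HSPA8 ran from 0.34 to 0.40 in shUCHL1, from -0.69 to -0.63 in shHSPA8 and from 1.01 to 1.06 between lines. Its share of member FPKM was 65.95% to 67.88% in shCON, 63.77% to 63.91% in shUCHL1 and 54.58% to 55.6% in shHSPA8. Members called ran from 4 to 8, 3 to 5 and 2 to 5, and were 5 between lines in the fit of 4 libraries and 5 in shHSPA8 and between lines with the length correction. The cause of these changes was not tested.

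Genes called over the transcriptome numbered 1987 in shUCHL1, 1859 in shHSPA8 and 1843 between lines. Leaving out 1 library gave 528 (without the first shUCHL1 library) to 2615, 920 to 2416 and 257 to 3083. At least 5 CPM gave 1264 in shUCHL1, the fit of 4 libraries gave 1104 in shHSPA8 and 3116 between lines, and the length correction gave 2893 between lines. Library size alone moved the median of all genes between lines to 0.119.

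The sign turned only in differences that were not called. Leaving out 1 library took HSPA4 in shHSPA8 from -0.028 to 0.21. Between lines the same took HSPA9 from -0.091 to 0.011, HSPA14 from -0.10 to 0.061 and HSPA13 from -0.10 to 0.34. HSPA9 between lines was also 0.063 with library size alone, 0.056 on log2(FPKM + 1) and 0.056 on log2(FPKM + 0.1). HSPA14 was 0.087, 0.059 and 0.060 under those 3, and 0.0034 with the length correction.

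Replicate numbers are shared between lines, but nothing says that a number marks a shared culture. Deviations of same-numbered libraries correlated at 0.337, -0.679 and -0.336 over genes. In each line these deviations come from the difference between its 2 libraries, which also correlated with transcript length. The correlations therefore cannot settle whether the numbers pair the libraries. A replicate block gave 1230, 1131 and 923 genes called, and HSPA8 in shUCHL1 stood at 0.38 (edgeR adjusted p = 0.0549). With 2 libraries per line, most simulated 1.5-fold changes were missed (17 of 67 found). Far fewer genes were changed in that simulation than were called in shUCHL1 (1987), so its share does not carry over to these data. Differences that were not called are not shown to be absent, and HSPA12A and HSPA6 rest on few counts in shCON.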
